A study of Mus musculus with 4 samples.

Results

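The respiratory chain genes of the cell nucleus were followed in hyperplastic mammary glands of mice with and without a miR-9 knockout. They were taken as every protein-coding row whose symbol begins with Ndufa, Ndufb, Ndufc, Ndufs or Ndufv, Uqcr, Cox4 to Cox8 or Atp5, or is Sdha, Sdhb, Sdhc or Sdhd, which gave 92 of the 25806 listed genes. By symbol 46 belong to complex I, 4 to complex II, 8 to complex III, 17 to complex IV and 17 to complex V. The rule used names only and no measured value, but the set was chosen with earlier results of these data known. The name "subunit" holds for most but not all of them. The 8 Ndufaf genes encode assembly factors of complex I that are not part of the finished enzyme, Cox7a2l encodes a factor that joins complexes III and IV, Atp5s encodes coupling factor B, and the product of Ndufa4, counted here with complex I by its symbol, is now regarded as a subunit of complex IV. Cyc1, the cytochrome c1 gene of complex III, does not have a symbol of this pattern and was followed in a list of other genes.

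Messenger RNA was sequenced from whole glands of female mice carrying MMTV-PyMT, a transgene in which the mouse mammary tumour virus promoter expresses the middle T antigen of polyomavirus in the epithelium, on a mixed C57BL/6 background. There were 2 control libraries, from mice labelled without miR-9 knockout, and 2 knockout libraries, from mice labelled miR-9 knockout, for which the protocol names a deletion of exon 1 of miR-9. All 4 libraries carry the transgene and all glands were at the hyperplastic stage. Age, the zygosity of the knockout mice, the miR-9 gene that was deleted and whether the libraries are from different animals are not given in the sources used here, and p-values therefore rest on the spread among the 4 libraries alone, which may be technical. The values are normalised read counts, that is, each library's reads per gene scaled by a single factor. They summed to between 15904798 and 16418668 per library. The epithelial keratin gene Krt19 had values of 7506 and 5887 in controls 1 and 2 and 14371 and 12004 in knockouts 1 and 2, and the milk protein gene Csn3 had 175769, 185462, 104670 and 167797, so the labelled tissue was seen in its markers. Of the 8 luminal epithelium markers followed, Krt19 was the 1 that was higher in the knockouts, and the other 7 were lower.

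The respiratory chain sits in the inner mitochondrial membrane. Complexes I and II take electrons from NADH and succinate and pass them to coenzyme Q, complex III passes them to cytochrome c, and complex IV hands them to oxygen. Complexes I, III and IV pump protons, and complex V, the ATP synthase, uses the returning protons to make ATP. Complexes I, III, IV and V are built from subunits of both the nuclear and the mitochondrial genome, whereas complex II is wholly nuclear. Some complex IV subunits have isoforms of muscle, brown fat or other tissues beside a widely expressed form, and a mammary gland holds fat and other cells beside its epithelium.

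No respiratory chain gene passed the threshold between knockout and control glands. Of the 91 genes tested, limma called 0 at an adjusted p of 0.05, where it called 0.583% of all 22455 genes tested (131 genes), 0.414% as higher and 0.169% as lower in the knockouts. At an unadjusted p under 0.05 there were 13 (14.3%), each lower in the knockouts, against 7.66% of all genes tested that were lower at that limit. This count of 13 moved with the setting. It was 8 with quantile normalisation, 10 with equal library totals and 0 with neither trend nor robust setting. With the replicate number as a block it was 15. Over all 22455 genes tested, 4040 had an unadjusted p under 0.05 in either direction. That count was 3889 with quantile normalisation, 3943 with equal library totals, 2983 with neither trend nor robust setting and 4530 with the block. In each of these settings the share of respiratory chain genes at that limit, in either direction, was below that of all genes tested. The log2 fold change, knockout minus control, ran from -0.65 to 0.83 over the 91 genes, and none reached 1 in either direction. Its median was -0.12 with quartiles of -0.24 and -0.03, while the median of all genes tested was 0.00425. The log2 fold change was below 0 in 69 of the 91 genes, against 49.6% of all genes tested.

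In 41 of the 91 genes both knockout libraries lay below both controls, which was the case in 25.6% of all genes tested, and in 6 both lay above, against 25.5%. Most respiratory chain genes are well expressed, and well-expressed genes as a whole leaned the same way. Among the 6990 protein-coding genes with a mean value of at least 500, a limit chosen after the values were seen, limma called 0.887%, both knockouts lay below both controls in 40.0% and above in 20.4%, the log2 fold change was below 0 in 63.2%, and the median was -0.08. The 75 respiratory chain genes above that limit had both knockouts below both controls in 50.7%, a log2 fold change below 0 in 80.0% and a median of -0.14. The share with an unadjusted p under 0.05 and a lower value in the knockouts was 16.0% (12 genes), near the 16.1% of all protein-coding genes above that limit. By that count the respiratory chain did not stand out from other well-expressed genes. Whether the chain's median differs from that of other genes was not tested. In bulk tissue, fewer cells of a type and less RNA per cell cannot be told apart.

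**Figure D1:**
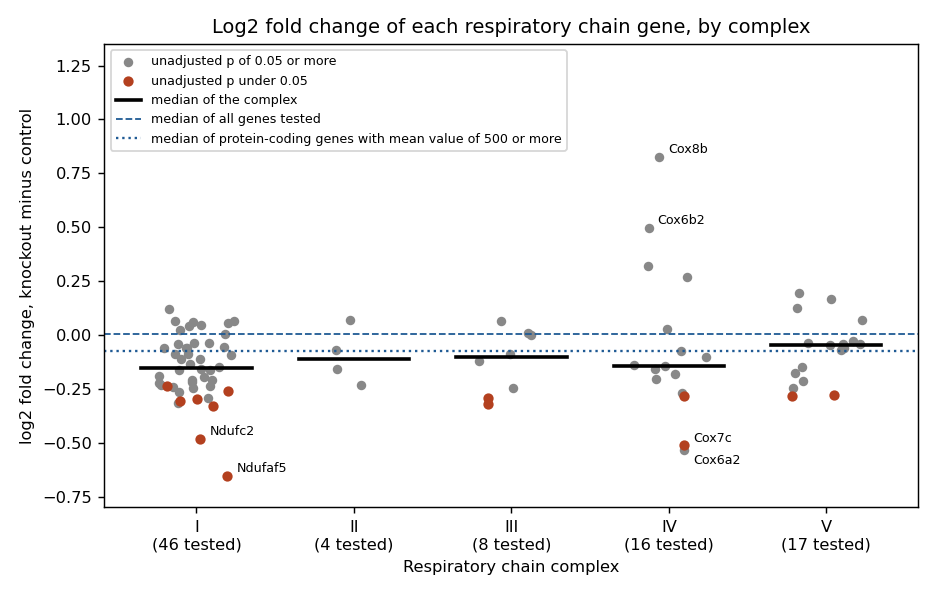
Log2 fold change (knockout minus control, from limma on log2 of the normalised read count plus 1) of each of the 91 tested respiratory chain genes, by complex, with a bar at the median of each complex and lines at the median of all genes tested (dashed) and of protein-coding genes with a mean value of 500 or more (dotted). The medians of complexes I to IV lie between -0.15 and -0.10 and that of complex V at -0.05, and the 13 genes at an unadjusted p under 0.05 all lie below 0.

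Gene by gene and without regard to sign, libraries of the same group differed by about as much as the group means did. Over the 91 genes the median log2 difference of knockout 1 was -0.16 from control 1 and -0.16 from control 2, and that of knockout 2 was -0.06 and -0.11. Control 2 differed from control 1 by a median of 0.0038 and knockout 2 from knockout 1 by 0.06. Without regard to sign, the median difference was 0.15 between the controls, 0.13 between the knockouts and 0.16 between the group means. The lower position of the knockouts was therefore more pronounced in knockout 1, in which 57 of the 91 genes were lower than in knockout 2. Summed over the 92 genes, the respiratory chain made up 1.38% of all normalised reads in each control and 1.27% and 1.32% in knockouts 1 and 2.

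**Figure D2:**
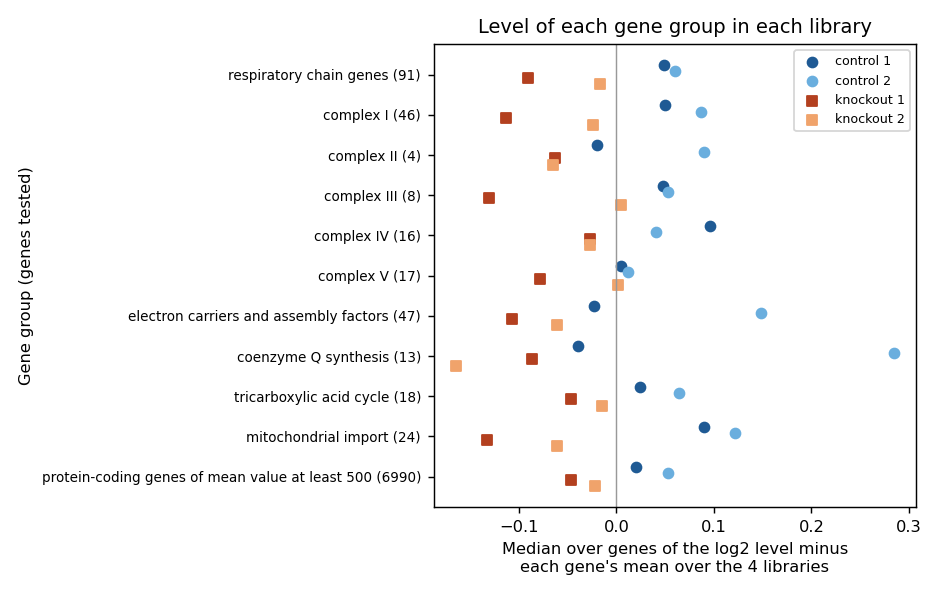
Median over the tested genes of each group of the log2 level minus the gene's own mean over the 4 libraries, 1 point per library, with controls as circles and knockouts as squares. For the respiratory chain as a whole both knockouts lie below both controls with knockout 1 lowest, as they do for the protein-coding genes with a mean value of at least 500, and for complex V knockout 2 lies beside the controls.

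Complex I, the NADH dehydrogenase, had a median of -0.15 over 46 genes, with 37 below 0. Both knockouts lay below both controls in 19 of them (41.3%). This was the case in 25.6% of all genes tested and 40.0% of protein-coding genes with a mean value of at least 500. Both lay above in 2, Ndufv3 and Ndufs5, named after their values were seen, against 25.5% and 20.4%. For Ndufs5 the gap was small, with 1191.8 in knockout 1 and 1190.8 in control 1. These background shares apply to the counts of the other complexes as well. The 7 core subunits, which include the carriers of the flavin and iron-sulfur centres, had a median of -0.16. That of the 31 genes counted as accessory subunits, Ndufa4 and Ndufa4l2 among them, was -0.11, and that of the 8 assembly factors -0.18. The median of the core subunits was -0.073 without control 2, and those of the accessory subunits and assembly factors were -0.076 and -0.097 without knockout 1. The gene with the smallest p was Ndufc2 (ENSMUSG00000030647, GRCm38 chromosome 7, 97400003 to 97407802), an accessory subunit of the membrane arm. Its level was 2222 and 2163 in controls 1 and 2 and 1439 and 1715 in knockouts 1 and 2. The knockouts lay below the controls without overlap, and the log2 fold change of -0.48 (with SE 0.12, 95% interval -0.75 to -0.21) did not pass in limma (adjusted p = 0.102). Ndufa2, an accessory subunit of the matrix arm, had 3047 and 3249 in control glands and 2367 and 2641 in knockout glands, a log2 fold change of -0.33 (limma adjusted p = 0.169). Ndufb7, an accessory subunit of the membrane arm, had 1636 and 1720 against 1373 and 1335, a log2 fold change of -0.31 (limma adjusted p = 0.180). In both genes the 2 libraries of a group lay closer to each other than to the other group.

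None of the core subunits passed in limma. Ndufs3, a core subunit of the coenzyme Q module, had the lowest log2 fold change of the 7 at -0.26, with 1216 and 1358 in control glands and 1101 and 1044 in knockout glands, and Ndufs1, the large iron-sulfur subunit, had -0.16 with 1390 and 1718 against 1337 and 1424, both named after their values were seen. For Ndufs1 the groups overlapped, since knockout 2 lay above control 1, and without control 2 its log2 fold change was -0.011. The lowest log2 fold change of all 91 genes was that of the assembly factor gene Ndufaf5, whose product is known in human cells to hydroxylate the core subunit NDUFS7, named after its value was seen. Its value was 215 and 359 in control glands and 178 and 174 in knockout glands, a log2 fold change of -0.65 (with SE 0.27, limma adjusted p = 0.253). Control 2 lay farthest from the other libraries, and without it the log2 fold change was -0.29. Without control 1, which leaves control 2 alone to stand for its group, the log2 fold change of Ndufaf5 was -1.02.

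Complex II, the succinate dehydrogenase, is also an enzyme of the tricarboxylic acid cycle. Its 4 genes had a median of -0.11, and 3 of them had both knockouts below both controls. Without control 2 the median was -0.056. Sdhd, 1 of the membrane anchors, had 2328 and 2846 in control glands and 2129 and 2250 in knockout glands (log2 fold change -0.23, limma adjusted p = 0.349), and Sdhc, the other anchor, had 2055 and 2118 against 1888 and 1855 (-0.16, limma adjusted p = 0.430). Sdha, the flavoprotein and the gene of complex II with the highest value, had 3981 and 4240 against 3971 and 3866, a log2 fold change of -0.07 with a 95% interval of -0.29 to 0.16. For Sdha the knockouts lay below the controls by less than the controls differed from each other.

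Complex III, which passes electrons from coenzyme Q to cytochrome c, had a median of -0.10 over 8 genes, with 5 below 0 and 4 in which both knockouts lay below both controls. Uqcr11, a small subunit of the membrane domain, had 3031 and 2724 in control glands and 2399 and 2209 in knockout glands (log2 fold change -0.32 and SE 0.11, limma adjusted p = 0.184). Uqcrfs1, the Rieske iron-sulfur subunit, had 3005 and 3316 against 2576 and 2570 (log2 fold change -0.29, limma adjusted p = 0.196), and Uqcrb, a small matrix-side subunit, had 2800 and 2518 against 2099 and 2379 (-0.25, limma adjusted p = 0.293). Uqcrh, the hinge protein that binds cytochrome c1, had the highest value of the complex with 4157 and 4168 against 3469 and 4230, and here knockout 2 lay above both controls. The complex rested on knockout 1: its median was -0.0094 without that library and -0.21 without knockout 2. Cyc1 itself, from the list of other genes and named after its value was seen, had 2010 and 2266 against 1962 and 1957 (log2 fold change -0.12, limma adjusted p = 0.573).

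**Figure D3:**
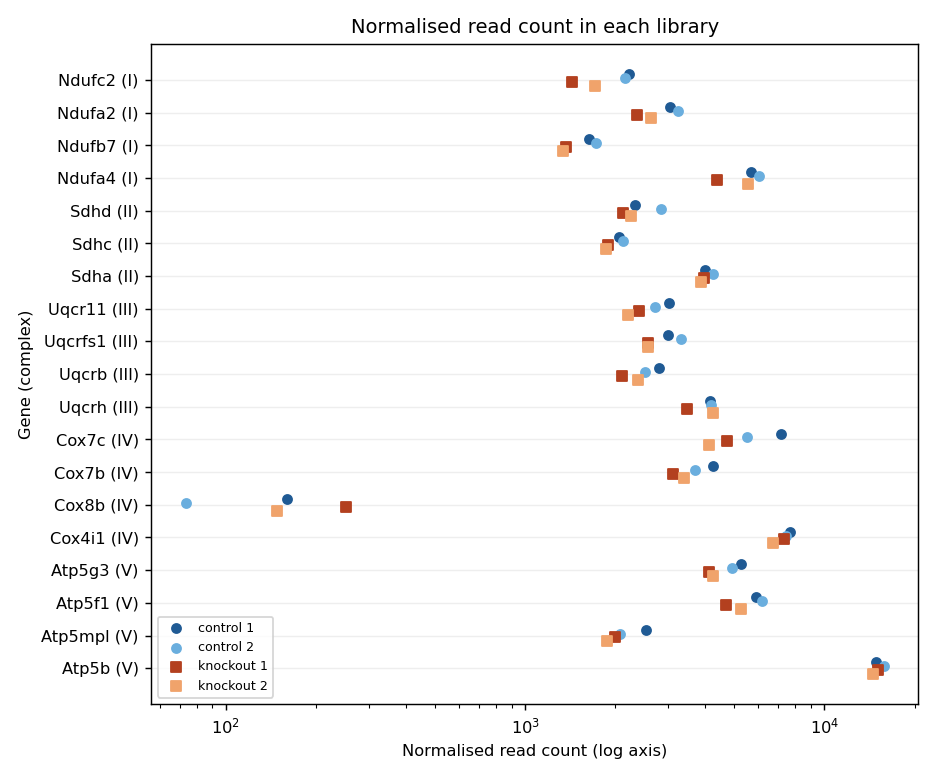
Normalised read count (log axis) in each library for the 3 genes of smallest unadjusted p and the gene of highest mean value in each complex, with controls as circles and knockouts as squares. In most rows both squares lie to the left of both circles by a small distance, Uqcrh, Cox8b and Atp5b are the rows in which the groups overlap, and Cox8b is the gene in which knockout 1 is highest.

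Complex IV, the cytochrome c oxidase, had a median of -0.14 over 16 tested genes. Of the 10 widely expressed subunits 9 were below 0, with a median of -0.17 (-0.11 without control 1), and 7 had both knockouts below both controls. Of the 5 tested tissue isoforms 4 were above 0, with a median of 0.32 (0.69 without control 1 and 0.21 without knockout 2). None of either group passed in limma, and the difference between them was not tested. Cox7c (ENSMUSG00000017778, GRCm38 chromosome 13, 86044816 to 86046904), a small transmembrane subunit, had the smallest p of the complex. Its value was 7155 and 5506 in control glands and 4723 and 4101 in knockout glands. The groups did not overlap, the controls differed from each other by more than control 2 did from knockout 1, and the log2 fold change was -0.51 (SE 0.14, 95% interval -0.84 to -0.18, limma adjusted p = 0.130). Without control 1 the log2 fold change of Cox7c was -0.32. Cox7b, another transmembrane subunit, had 4231 and 3698 against 3117 and 3388 (log2 fold change -0.28, limma adjusted p = 0.239). Cox4i1, the widely expressed form of subunit 4 and the highest of the complex, had 7678 and 7430 against 7342 and 6741, a log2 fold change of -0.10 (95% interval -0.33 to 0.13).

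The other widely expressed forms of the isoform families had log2 fold changes of -0.27 for Cox7a2, -0.16 for Cox6a1, -0.15 for Cox8a and -0.14 for Cox6b1, with limma adjusted p from 0.354 to 0.516. Cox7a2l, the supercomplex factor, had -0.08 with 3876 and 4596 in control glands and 4049 and 3966 in knockout glands, so that the knockouts lay between the controls. Its sign changed with quantile normalisation (0.010) and without control 2 (0.048).

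Isoforms of muscle, brown fat, lung or testis were present at a small fraction of their widely expressed partners. Levels were compared per kilobase of the longest principal coding transcript of each gene. Cox8b, the form of subunit 8 of heart, skeletal muscle and brown fat, stood at 4.05% and 2.13% of Cox8a in controls 1 and 2 and at 7.23% and 4.65% in knockouts 1 and 2. The 4 libraries gave 160 and 73.7 in control glands and 253 and 149 in knockout glands, so the groups overlapped, and the log2 fold change of 0.83 (with SE 0.42) did not pass in limma (adjusted p = 0.346). Cox7a1, the form of subunit 7a of the same tissues, was at 4.53% and 2.28% of Cox7a2 in control glands and 5.08% and 4.64% in the knockouts. Control 2 was the lowest library for both genes. Without it the log2 fold change of Cox8b was 0.27, and that of Cox7a1 changed sign from 0.32 to -0.060.

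Cox6b2, the testis form of subunit 6b, had 23.6 and 17.9 in control glands and 28.9 and 30.1 in knockout glands, both knockouts higher but within a 95% interval of -0.48 to 1.48 on the log2 scale. Cox4i2, the lung form of subunit 4, which is known for its induction by low oxygen, had 10.3 and 13.9 against 12.9 and 16.5, and Cox6a2, the heart and muscle form of subunit 6a, had 5.14 and 6.97 against 4.97 and 2.91. Cox8c, a testis form of subunit 8, was the 1 gene not tested, with 0.996 in control 2, 0.995 in knockout 1 and 0 in the others. Ndufa4l2, the relative of Ndufa4 that low oxygen induces, had 26.7 and 27.9 in control glands and 43.8 and 18.5 in knockout glands, so that the controls lay between the knockouts, and its fold change had no steady sign (0.06, and -0.54 without knockout 1). Ndufa4 itself, the gene of highest value among those counted with complex I, had 5676 and 6029 against 4368 and 5561 (log2 fold change -0.25, limma adjusted p = 0.353).

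**Figure D4:**
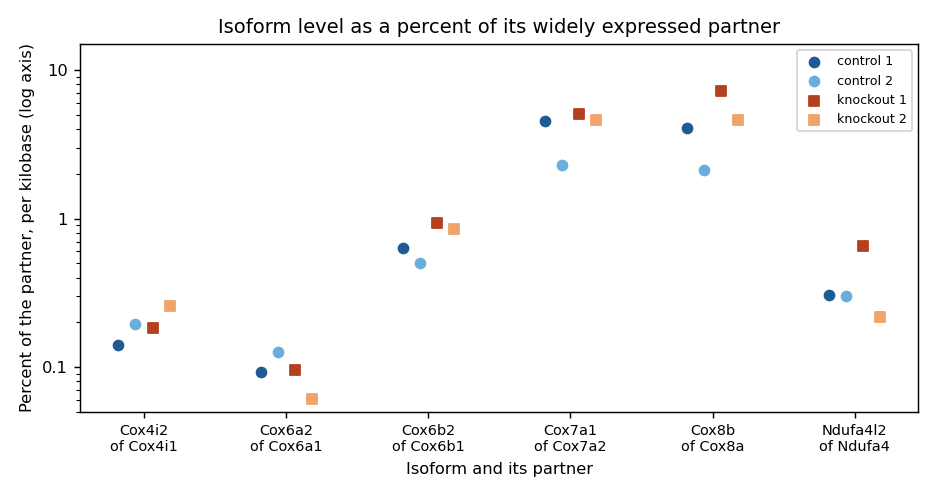
Level per kilobase of each tissue or hypoxia isoform as a percent of its widely expressed partner (log axis), 1 point per library, with controls as circles and knockouts as squares. Cox7a1 and Cox8b lie between 2.13% and 7.23% of their partners with control 2 lowest, and the other isoforms lie below 1%.

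Complex V, the ATP synthase, had a median of -0.05 over 17 genes (-0.087 without knockout 2). The 5 genes of the F1 head and central stalk, where ATP is made, had a median of -0.04, 3 below 0 and 2 with both knockouts above both controls. Without control 2 the median of these 5 was 0.084. Atp5b, the catalytic beta subunit and the highest of all 92 genes, had 14829 and 15760 in control glands and 15106 and 14535 in knockout glands, which overlap. Its log2 fold change of -0.05 had a 95% interval of -0.27 to 0.18 and became 0.022 with quantile normalisation. Atp5e, the epsilon subunit, had 3028 and 2666 against 3218 and 3282 (log2 fold change 0.19, limma adjusted p = 0.369), and Atp5c1, the gamma subunit that turns inside the head, had 4453 and 4520 against 4523 and 5283 (0.12, limma adjusted p = 0.585), both named after their values were seen.

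Outside the head, all 3 genes that encode the c subunit of the membrane ring had both knockouts below both controls, with a median of -0.18 (-0.086 without control 2). Among them Atp5g3 had 5253 and 4915 in control glands and 4122 and 4246 in knockout glands (log2 fold change -0.28 and SE 0.10, limma adjusted p = 0.200). Atp5f1, the b subunit of the peripheral stalk, had 5918 and 6174 against 4685 and 5269 (log2 fold change -0.28, limma adjusted p = 0.220), and Atp5mpl, a small proteolipid of the membrane part, had 2533 and 2071 against 1992 and 1871 (-0.25, limma adjusted p = 0.331, and -0.10 without control 1). The 4 stalk genes had a median of -0.10 (0.050 without knockout 1), and in all 4 knockout 1 was lower than knockout 2, by a median of 0.26 on the log2 scale. The other complex V gene with both knockouts higher was Atp5s, with 309 and 335 against 378 and 346. No difference between head, ring and stalk was tested.

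Per kilobase of transcript, the order of the complexes was similar in both groups. Among genes with a mean value of at least 500, the median level per kilobase in controls 1 and 2 was 6371 and 6083 for complex IV (11 genes), 4828 and 4413 for complex V (16 genes), 3719 and 3570 for complex III (8 genes), 1660 and 1697 for complex I (36 genes) and 1438 and 1584 for complex II (4 genes). In knockouts 1 and 2 it was 5306 and 6011, 4233 and 4865, 2911 and 3166, 1501 and 1525, and 1471 and 1565 in the same order. Complexes IV and V lay above complex III in every library, and complexes I and II overlapped. In the control means the genes of complexes I, III, IV and V spread more than the complex medians did. Those counted with complex I ran from 273 to 9595 per kilobase. The lowest was Ndufab1, with a transcript of 3479 bases, and the highest was Ndufa4, now regarded as a subunit of complex IV. The genes of complex II spread less, from 658 to 2101.

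A minority of the promoters held each of the motifs searched for here, and no enrichment was tested. RefSeq promoters on GRCm38.p6, from 250 bases before to 50 bases after the start, were found for 75 of the 92 genes. Those of the other genes were not used here. Motifs were searched on both strands, 12 in all, of which 4 are described with their shares. The site of nuclear respiratory factor 1 with 1 free base, GCGCA and GCGC around the free base, was in 25.3% of the 75 genes (19 genes), in 5.19% of all 27025 genes with a promoter and in 13.1% of the 5651 protein-coding genes with a mean value of at least 500. The YY1 site AAGATGGC was in 14.7%, 3.19% and 6.34%. The ETS site CCGGAAG, which GABP binds, was in 24% (18 genes), 9.93% and 22.6%, so its share was near that of other well-expressed genes. The TATA box TATAAA was in 8.0%, 15.7% and 8.26%. Genes with a respiratory factor site had a median log2 fold change of -0.14 (19 genes) and the other 56 tested genes with a promoter -0.09, which is given as a description with no test.

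One promoter per complex is printed to show these sites, 5′ to 3′ on the strand of the gene, with the respiratory factor site, CCGGAAG and AAGATGGC, on either strand, in capitals. They are those of Ndufs6 (chr13:73328433-73328732, minus strand), an accessory subunit of complex I, of Sdhd (chr9:50603800-50604099, minus strand), of Uqcr11 (chr10:80406772-80407071, minus strand), of Cox6a1 (chr5:115348909-115349208, minus strand) and of Atp5g3 (chr2:73911277-73911576, minus strand).
Ndufs6: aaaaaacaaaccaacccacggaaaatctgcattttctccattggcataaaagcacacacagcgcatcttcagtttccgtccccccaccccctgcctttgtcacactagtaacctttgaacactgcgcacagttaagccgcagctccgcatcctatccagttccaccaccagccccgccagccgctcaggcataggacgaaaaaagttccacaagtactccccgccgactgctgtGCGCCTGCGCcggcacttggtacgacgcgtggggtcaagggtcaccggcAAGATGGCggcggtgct
Sdhd: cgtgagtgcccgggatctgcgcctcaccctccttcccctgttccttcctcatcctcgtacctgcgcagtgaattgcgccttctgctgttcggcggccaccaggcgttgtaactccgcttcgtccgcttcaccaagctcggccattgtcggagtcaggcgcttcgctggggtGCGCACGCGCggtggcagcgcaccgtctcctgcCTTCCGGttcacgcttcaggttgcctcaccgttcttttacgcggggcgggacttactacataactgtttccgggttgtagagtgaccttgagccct
Uqcr11: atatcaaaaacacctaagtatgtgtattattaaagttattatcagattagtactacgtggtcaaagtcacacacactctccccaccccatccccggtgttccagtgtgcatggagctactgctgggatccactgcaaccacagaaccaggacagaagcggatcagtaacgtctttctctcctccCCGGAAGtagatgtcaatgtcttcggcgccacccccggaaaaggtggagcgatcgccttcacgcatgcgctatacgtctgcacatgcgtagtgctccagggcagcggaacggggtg
Cox6a1: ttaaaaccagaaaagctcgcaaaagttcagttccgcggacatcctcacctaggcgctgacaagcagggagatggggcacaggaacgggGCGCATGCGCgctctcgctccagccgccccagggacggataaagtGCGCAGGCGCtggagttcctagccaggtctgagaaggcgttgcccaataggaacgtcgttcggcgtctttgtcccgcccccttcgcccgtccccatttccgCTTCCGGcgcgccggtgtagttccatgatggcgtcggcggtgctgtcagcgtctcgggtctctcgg
Atp5g3: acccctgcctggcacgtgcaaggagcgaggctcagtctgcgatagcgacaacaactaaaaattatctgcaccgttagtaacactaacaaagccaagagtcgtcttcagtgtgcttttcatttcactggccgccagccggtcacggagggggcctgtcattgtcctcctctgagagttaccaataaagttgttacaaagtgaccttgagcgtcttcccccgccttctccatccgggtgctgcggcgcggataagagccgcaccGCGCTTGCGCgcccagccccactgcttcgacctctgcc
The Ndufs6 promoter holds a respiratory factor site and, past the start, a YY1 site, that of Sdhd a respiratory factor site and an ETS site, that of Uqcr11 an ETS site, that of Cox6a1 2 respiratory factor sites and an ETS site, and that of Atp5g3 a respiratory factor site. A match is a description of the letters in the window and not evidence of binding.

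The microRNA that was knocked out has few seed sites among these messages. The mature miR-9-5p of RefSeq is printed with its seed, bases 2 to 8, in capitals.
mmu-miR-9-5p: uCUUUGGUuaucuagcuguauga
The longest annotated 3′ UTR of the 92 genes had a median of 202 bases, against 1072 over 16602 protein-coding genes. A 7-base or 8-base seed match was in 3 of the 92 (3.26%), against 21.6% of all protein-coding genes, whose UTRs are longer. The sites are printed on the message strand with 11 bases on each side and the seed match in capitals. They lie in Cox6c, a transmembrane subunit of complex IV (chr15:35932062-35932090), in Ndufab1, the mitochondrial acyl carrier protein (chr7:122086611-122086639 and chr7:122086194-122086222), and in Ndufb2, an accessory subunit of complex I (chr6:39601238-39601266 and chr6:39602996-39603025).
Cox6c: tggattgcgctCCAAAGAagttcattgct
Ndufab1 site 1: aaaagaaaggtACCAAAGtgtgaattagt
Ndufab1 site 2: tggttcagtggACCAAAGgaccttacagt
Ndufb2 site 1: gggtttgtttcCCAAAGAaacagtaagta
Ndufb2 site 2: agtcactttaaACCAAAGAtgcaggtcaca
The second site of Ndufb2 is the 1 full 8-base match. Cox6c had 5496 and 4774 in control glands and 4138 and 4767 in knockout glands, a log2 fold change of -0.21 (limma adjusted p = 0.393). Ndufab1 had 985 and 918 against 692 and 902 (log2 fold change -0.27, limma adjusted p = 0.376), and Ndufb2 had 350 and 359 against 322 and 426 (0.06, limma adjusted p = 0.893). None of the 3 genes was called, and 2 of them were lower in the knockouts. The 88 tested genes without such a site had a median of -0.12.

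Genes that work with the respiratory chain were followed in 6 lists, and none of their genes passed in limma. The 47 tested genes of electron carriers and assembly factors had a median log2 fold change of -0.13 (-0.066 without control 2). Of them 40 were below 0 (85.1%) and 5 were lower at an unadjusted p under 0.05 (10.6%). Over all genes tested these shares were 49.6% and 7.66%. Over protein-coding genes with a mean value of at least 500 they were 63.2% and 16.1%. Cox20, a chaperone of complex IV assembly, had 38.0 and 106 in control glands and 23.9 and 12.6 in knockout glands (log2 fold change -1.81, limma adjusted p = 0.163, and -1.08 without control 2), Etfa, which feeds electrons from fatty acid oxidation, had -0.31, and Cycs, cytochrome c, had -0.44. The 24 genes of mitochondrial import and chaperones had a median of -0.21, with 23 below 0 (95.8%) and 18 with both knockouts below both controls (75%). Over all genes tested these shares were 49.6% and 25.6%, and over well-expressed protein-coding genes 63.2% and 40.0%, with no test of the difference. Tomm40, the import pore, had -0.52 (limma adjusted p = 0.104), Hspe1 -0.39 and Hspd1 -0.47. The 13 genes of coenzyme Q synthesis had a median of -0.29 that rested on control 2, since it was -0.068 without that library, with Coq7 at -0.38, Coq2 at -0.32 and Coq8a at -0.39. The 18 genes of the tricarboxylic acid cycle had one of -0.04 (-0.10 without control 1), with Ogdh at 0.35, Idh2 at -0.28 and Dlst at -0.20. The 16 regulators of mitochondrial biogenesis had a median of -0.05 (0.0082 without control 2), with Yy1 at -0.23, Esrra at -0.29 and Perm1 at -0.51. Both knockouts were lower in 4 of the 16 (25%) and both were higher in 4, against 25.6% and 25.5% of all genes tested.

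The subunits encoded by the mitochondrial genome had another order of libraries. Their 13 genes had a median of 0.17, with 4 below 0, and in 11 of them the groups overlapped. The median changed sign without control 2 (-0.047) and without knockout 2 (-0.058). They made up 2.57% and 1.86% of the normalised reads in controls 1 and 2 and 2.13% and 2.62% in knockouts 1 and 2, so that control 2 was lowest. The mt-Nd5 gene had 20446 and 13140 in control glands and 20824 and 25326 in knockout glands (log2 fold change 0.49, limma adjusted p = 0.318), mt-Nd6 had 0.24 and mt-Nd2 had 0.31. The mt-Co3 gene, named after its value was seen, went the other way with 3719 and 1155 in control glands and 790 and 1079 in knockout glands (-1.17, limma adjusted p = 0.469, and -0.32 without control 1). The difference between nuclear and mitochondrial subunits was not tested.

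The libraries also differed in markers of cell types. Of the 8 luminal epithelium markers, 7 had both knockouts below both controls (87.5%). This share was 25.6% over all genes tested and 40.0% over protein-coding genes with a mean value of at least 500. The difference was not tested. The median of the 8 markers was -0.24, with Cldn7 at -0.61 and Cldn4 at -0.56, while Krt19 rose by 0.98 (limma adjusted p = 0.0351). Their mean log2 level, centred on each gene's mean, was 0.10 and 0.08 in controls 1 and 2 and -0.02 and -0.15 in knockouts 1 and 2, against 0.06 and 0.05 and -0.08 and -0.03 for the respiratory chain genes. The 5 milk genes had a median of -0.45 (-0.11 without knockout 1), with knockout 1 lowest at -0.97, and Csn1s1, Lalba and Csn3 at -2.20, -0.43 and -0.45. Knockout 1, in which the respiratory chain was lowest, was the highest library for adipocyte (1.56) and B and plasma cell (2.67) markers. Their part in the respiratory chain values was not tested.

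The adipocyte markers summed to 13415 and 6033 in control glands and 30065 and 9505 in knockout glands, and all 10 were above 0 in every library, with Aqp7 at 2.25, Pck1 at 2.12 and Lep at 1.75 as log2 fold changes. Control 2, the lowest library for Cox8b and Cox7a1, was the lowest not only for the adipocyte list but also for the basal (-0.78), fibroblast (-0.84), endothelial (-0.71), macrophage (-0.48), T cell (-0.52) and B and plasma cell (-1.58) lists. Knockout 1, the highest for Cox8b, was also the highest for those lists except the basal one. The adipocyte median of 1.48 was 0.75 without knockout 1. Of the brown fat markers, with a median of 0.31 (-0.19 without knockout 1), Cidea had 54.5 and 24.9 against 93.5 and 44.7, Ppargc1a had a log2 fold change of -0.23 and Dio2 of 0.20, and the defining gene Ucp1 was near the floor at 2.05, 0.996, 9.95 and 0. Skeletal muscle markers summed to 415 and 75.7 in control glands and 75.6 and 82.6 in knockout glands, so control 1 was highest, and the median of -0.87 became 0.46 without it, with Mylpf at -0.88, Acta1 at -1.26 and Tnnt3 at -1.93. The myosin gene Myh4 was at 30.8 in control 1, 0 in control 2 and knockout 1 and 0.971 in knockout 2. Spermatid markers were not listed in the files.

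Basal, stromal and immune markers had medians above 0, and 1 of their genes passed in limma. The medians were 0.94 for 6 basal epithelium genes (Trp63 0.50, Krt14 -0.46, Acta2 1.44), 0.73 for 6 fibroblast genes (Dcn 1.01, Pdgfra 0.79, Col1a1 0.79), 0.56 for 5 endothelial genes (Vwf 1.06, Kdr 0.50, Cdh5 0.56) and 0.53 for 6 macrophage genes (Csf1r 0.91, C1qb 0.53, C1qa 0.43). They were 0.97 for 6 T cell genes (Cd3g 1.41, Cd3d 0.98, Cd3e 1.26) and 2.52 for 6 B and plasma cell genes, of which Pou2af1 rose by 2.09 (limma adjusted p = 0.0340) and Cd79b and Jchain had 2.64 and 1.57. Without control 2 the fibroblast and endothelial medians were 0.20 and 0.14, the basal one 0.56 and the macrophage one 0.36, and without knockout 1 the B and plasma cell median was 1.54.

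**Figure D5:**
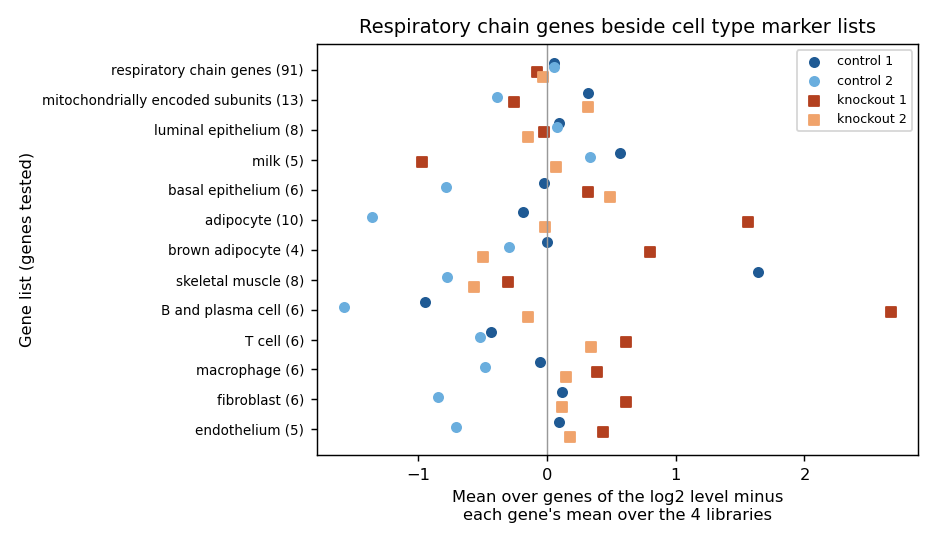
Mean over the tested genes of each list of the log2 level minus the gene's own mean over the 4 libraries, 1 point per library, with controls as circles and knockouts as squares. The respiratory chain genes lie within 0.08 of 0 in every library, while adipocyte, muscle and B cell markers differ between libraries of the same group by over 1 on the log2 scale.

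Rows with the same name pattern but another biotype were left out by the rule. There were 8, of which 7 were processed pseudogenes with values of at most 142 in any library. The other was Ndufb1-ps, annotated as a non-coding transcript, with 1671 and 891 in control glands and 1321 and 929 in knockout glands. Many respiratory chain genes have near-identical pseudogene copies, so the split of reads between a gene and its copies is uncertain, and the counting rule is not given in the sources used here.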

How the data were processed

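RNA of control and knockout glands was made into 2 libraries per group with the Illumina TruSeq RNA kit, per the labels. The values deposited by the authors are a normalised signal. Every value is a whole multiple of the smallest one of its library (within 1e-06), as reads scaled by a single factor would be. In control 2 and knockout 1 this step was too near 1 for whole reads to be recovered with certainty, so no count-based test was run. The submitters' processing notes name Bowtie 0.12.2 and the builds hg38, GRCm38 and mm10 without saying what each was used for. How reads were counted, whether strand was used and how values were scaled is not given in the sources used here. Among listed identifiers, 97.1% had the same coordinates in GENCODE M21 (GRCm38).

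Genes with a value of at least 1 in at least 2 libraries entered limma 3.58.1 (R 4.3.3) on the log2 scale after a pseudocount of 1, with trend and robust settings and genotype as the only term, with Benjamini-Hochberg adjustment over all 22455 genes. The procedure was also tested on simulated data. Fold changes are on that log2 scale and relative to the typical gene, and the pseudocount understates changes of low genes. With 2 libraries against 2, the smallest two-sided p of an exact permutation test is 0.333. The depth of the libraries is known only as the sums of scaled values, and no counting intervals were computed. SE and 95% intervals are from limma.

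Named genes were, by rule, those past the threshold and in each complex the 3 of smallest p and the 1 of highest value. The rule also took the isoform families and the 3 of smallest p of each list. Most others are marked. Ndufs6 was named for its promoter, and Cox6c, Ndufab1 and Ndufb2 for their seed sites. Atp5s, Ucp1 and Myh4 were named beside those of the rule, with their values known. The members and the 18 lists (204 of 211 symbols were in the files) were chosen with earlier results of these data known. Transcript lengths are those of the longest APPRIS principal coding transcript. Promoters and miR-9-5p are from RefSeq, UTRs from GENCODE M21. Medians of roles and lists and single genes without each library were added after seeing the data.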

Additional observations from a re-analysis of the deposited data

How the results depend on the processing

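In limma 0 respiratory chain genes passed in every setting tried except without control 1, where 1 did (leaving out single libraries gave 0 to 1). Over all genes the count was 131, and it was 257 with quantile normalisation, 33 and 258 with pseudocounts of 0.1 and 5, 332 with no filter, 69 with a mean value of at least 10, 0 with neither trend nor robust setting (2983 at an unadjusted p under 0.05), and 0 to 2361 when single libraries were left out (2361 without control 1, and 0 without knockout 1 or knockout 2, with 1384 and 1805 at an unadjusted p under 0.05). The labels do not say that the replicate numbers pair libraries, and there are only 2 pairs. Deviations of same-numbered libraries correlated at r = 0.12 across all genes tested, 0.22 across the higher ones and 0.25 across the respiratory chain genes, which are not independent. With the replicate number as a block 367 genes passed and 0 respiratory chain genes. The median of the chain was -0.075 with quantile normalisation and -0.15 to -0.079 when single libraries were left out. With quantile normalisation the medians were -0.10 for complex I, -0.048 for complex II, -0.069 for complex IV and -0.0023 for complex V, and with equal library totals -0.11 for complex IV. Leaving out single libraries gave -0.17 to -0.098 for complex I, -0.15 to -0.056 for complex II, -0.21 to -0.0094 for complex III, -0.16 to -0.090 for complex IV and -0.087 to -0.039 for complex V, and, for named genes whose sign changed, -0.060 to 0.70 for Cox7a1, -0.20 to 0.048 for Cox7a2l, -0.54 to 0.66 for Ndufa4l2 and -0.26 to 0.023 for Uqcrh. With quantile normalisation signs changed for Atp5b (0.022), Cox7a2l (0.010) and Ndufa4l2 (-0.24), none of them called in any setting. Where values moved, the cause was not tested. With 2 libraries per group the 95% intervals are wide, from -0.27 to 0.18 on the log2 scale even for Atp5b, the highest gene.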
